A study of Rattus norvegicus with 320 samples.

Results

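The adult kidney is described here from the 8 kidney libraries of week 21, taken from 4 female and 4 male rats, out of 320 miRNA-seq libraries in the series. They were compared with 64 libraries of 8 other organs of the same age that both sexes have, namely adrenal gland, brain, heart, lung, liver, skeletal muscle, spleen and thymus, with 8 libraries each. The libraries were chosen by organ and age alone, and all 616 miRNAs of the count table were kept. The rats were of the inbred Fischer 344 strain (written Fisher 344 in the labels), pair-housed and given no treatment, and each rat gave its organs to several groups, so the groups share animals. Each organ was ground whole before total RNA was isolated, so that a lower miRNA level from fewer cells of a type and from less of it per cell cannot be told apart. No spike-in was used, and all levels are therefore relative: counts scaled to a common library total (CPM, counts per 1e+06 miRNA counts).

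MicroRNAs are short RNAs cut from hairpin precursors, of which both arms (5p and 3p) can yield a mature product. The bases 2 to 8 from the 5′ end, the seed, pair with target mRNAs and largely decide which mRNAs are repressed. The kidney derives from intermediate mesoderm of the trunk and consists mainly of tubule epithelium, and it is known for miRNAs encoded inside the Hox clusters, for the miR-192 and miR-194 cluster, for the epithelial miR-200 family and for miR-30 miRNAs, which act in podocytes and in nephron formation.

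The sequences below are those of the miRNAs on which the results turn. Capitals mark the seed. They were read from the deposited miRNA table, and where RefSeq holds a miRNA of the same name (551 of the 616) its sequence was identical. The first set holds miRNAs from Hox clusters. In GRCr8, rno-miR-10a-5p lies at chr10:81779730-81779752 (+) between Hoxb5 and Hoxb4, rno-miR-10b-5p at chr3:80035886-80035907 (+) inside Hoxd4, rno-miR-196a-5p at chr7:135988900-135988921 (+) between Hoxc10 and Hoxc9, and rno-miR-196b-5p at chr4:82661149-82661170 (-) between Hoxa9 and Hoxa10. The deposited miR-10b-5p starts 2 bases after miR-10a-5p and differs from it at 1 of the 21 bases they then share. As a result their listed seeds differ. Between miR-196a-5p and miR-196b-5p there is 1 difference over 22 bases (A12C, counted from the 5′ end, miR-196a first), outside the seed they share.
rno-miR-10a-5p: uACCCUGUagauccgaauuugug
rno-miR-10b-5p: cCCUGUAGaaccgaauuugugu
rno-miR-196a-5p: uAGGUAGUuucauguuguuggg
rno-miR-196b-5p: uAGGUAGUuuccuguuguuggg

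The second set holds epithelial and nephron miRNAs. Here miR-192-5p (GRCr8 chr1:212994232-212994252, +) and miR-215 have one seed, miR-200b-3p and miR-429 have another, and miR-200a-3p differs from these 2 within the seed. rno-miR-194-5p is encoded beside miR-192 on chromosome 1 and again beside miR-215 on chromosome 13, inside Iars2, so its counts sum both loci.
rno-miR-192-5p: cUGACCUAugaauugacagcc
rno-miR-215: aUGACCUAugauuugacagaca
rno-miR-194-5p: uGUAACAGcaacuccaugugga
rno-miR-200b-3p: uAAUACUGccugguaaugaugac
rno-miR-429: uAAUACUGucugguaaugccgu
rno-miR-200a-3p: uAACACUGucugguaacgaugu
rno-miR-203b-3p: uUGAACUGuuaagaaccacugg

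The third set holds the pair that set kidney apart from every organ compared. Both lie on the minus strand inside Calcr, the gene of the calcitonin receptor, rno-miR-653-5p at chr4:32647455-32647475 and rno-miR-489-3p at chr4:32648063-32648084 (GRCr8). No exon or intron boundaries were used here.
rno-miR-653-5p: uUGAAACAuucucuacugaac
rno-miR-489-3p: aUGACAUCacauauauggcagc

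Library totals in kidney were 1919721 to 6267254 counts, and the median totals of the other organs ran from 913652 in liver to 5261369.5 in adrenal gland. The 28 pairs of kidney libraries had Pearson coefficients of 0.985 to 0.994 on log2(CPM + 1) across miRNAs, which are not independent replicates. In no pair was the difference within counting error (chi-square divided by its degrees of freedom, 49.9 or more). In every kidney library 6 miRNAs made up 65.1% to 79.6% of all counts (median 73.2%). Such a composition makes the scaling between organs matter: the TMM factors, which correct totals for dominant miRNAs, were 0.511 to 0.840 in kidney and 1.77 to 2.63 in brain.

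Among the libraries compared, 2 stood apart, both of male replicate 3. The lung library held 2885 CPM of the hepatocyte miRNA miR-122-5p, against 2.61 to 5.43 CPM in the other lung libraries, and the adrenal library held 421 CPM, against 5.49 to 35.4. In the same libraries miR-192-5p reached 26475 CPM in lung (1385 to 2072 in the others) and 2457 CPM in adrenal gland (257 to 634). Results on miR-192-5p, miR-194-5p and miR-122-5p are given with and without both. Other single libraries or organs were also uneven. Brain female replicate 2 held 143 CPM of miR-122-5p (1.05 to 27.8 in the other brain libraries), and 1 brain library gave 1.57% of its counts to miR-10a-5p and miR-10b-5p (median 0.318%). Pancreas acinar miRNAs summed to between 0.554 and 2000 CPM in spleen and between 0 and 738 CPM in liver. Leaving out replicate 2 or replicate 3 of every group gave miR-122-5p differences from the organ mean of -3.01 and -2.10, against -2.98 with all libraries, and miR-10a-5p differences of 3.54 and 3.47, against 3.47. In the kidney libraries miR-122-5p stayed at 2.08 to 6.37 CPM.

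The quasi-likelihood test of edgeR was run on TMM-scaled counts, with the contrast of kidney minus the mean of the 8 organ levels on the log2 scale, with Benjamini-Hochberg adjustment over all 616 miRNAs. A miRNA was called at an adjusted p below 0.05 and a difference of at least 2-fold. Since the organs were averaged on the log2 scale, a miRNA called higher can still lie below the arithmetic mean of the organs in CPM. On this rule 104 miRNAs were higher in kidney (16.9% of all tested) and 90 were lower (14.6%), and the median log2 difference of all 616 was -0.15. The split rested on the scaling. With library totals alone, each miRNA's difference was lower by a median of 0.65 on the log2 scale, and 61 miRNAs were higher and 186 lower. With DESeq2 and its size factors the median shift was -0.28, with 80 higher and 162 lower. Under all 3 scalings 61 miRNAs (9.90%) were higher and 90 (14.6%) were lower, and none was called in opposite directions. Both alternatives moved the differences down in the median, so they are a weak check for lower calls. Of the 61, 48 were higher than at least 6 organs, 23 were lower than 1 organ or more, and 11 had their highest mean CPM in kidney. Among the 47 miRNAs with a mean of at least 1000 CPM in kidney, 12 were higher and 1 was lower, of which 9 and 1 were called under all 3 scalings.

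**Figure D1:**
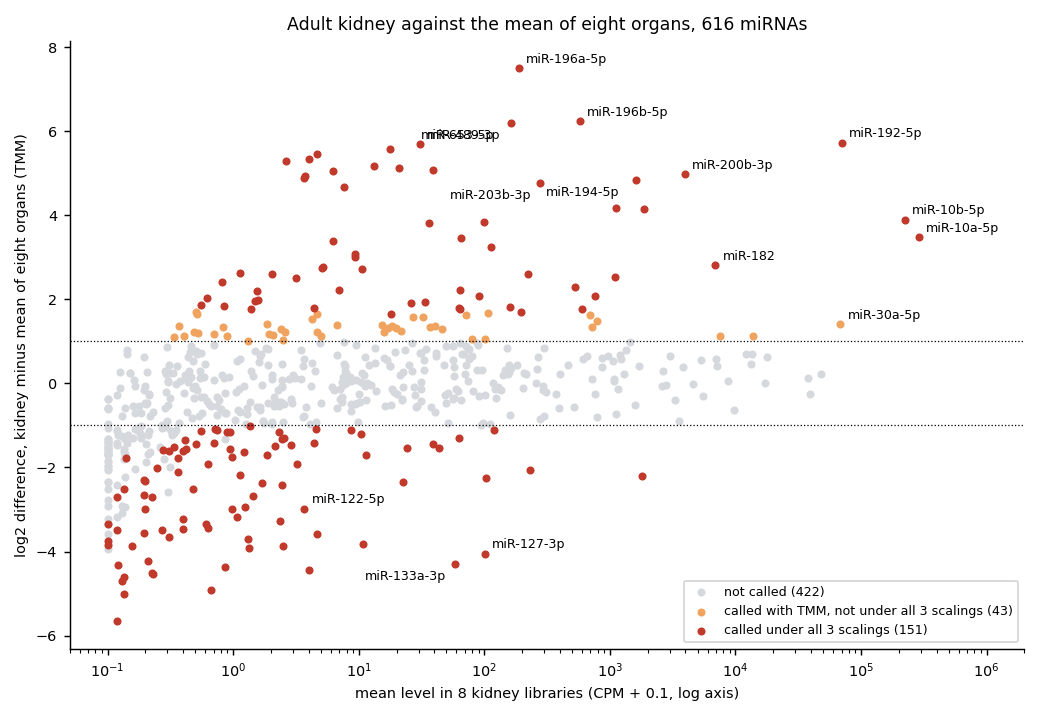
Each point is 1 of 616 miRNAs, with its mean level in the 8 kidney libraries (CPM + 0.1, log axis) and its log2 difference between kidney and the mean of the 8 organs (TMM), and dotted lines mark 2-fold. Most labelled miRNAs lie above the upper line, with miR-10a-5p and miR-10b-5p at the far right at log2 differences of 3.47 and 3.89, and miR-30a-5p at 1.41. Labelled below the lower line are miR-133a-3p (-4.29), miR-127-3p (-4.06) and miR-122-5p (-2.98).

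The miRNAs from Hox clusters were higher in kidney as a group. The list of miR-10a, miR-10b, miR-196a, miR-196b, miR-196c and miR-615 has 11 mature products, and all 11 were called higher, also under all 3 scalings. Over all miRNAs 16.9% were higher, and 9.9% under all 3 scalings, shares that also stand beside the list counts below. They test no list, since the lists were chosen with earlier results of these data known and both arms of a hairpin share a precursor. The median log2 difference of the 11 Hox-cluster products was 4.90, beside -0.15 over all miRNAs. With the organs at 3 counts or fewer in every library set to that limit it was 3.47, beside -0.17. The marker of the kidney group, rno-miR-10a-5p, was its most abundant miRNA. It ranged from 244326 to 324295 CPM (median 293496), against 185716 to 238216 in adrenal gland, 88337 to 146958 in lung and 1049 to 5249 in brain. Every kidney library was above every library of the other 8 organs. The log2 difference was 3.47 ± 0.13 (SE; adjusted p = 1.5e-36), and it was 0.64 ± 0.23 against adrenal gland, the closest organ, which is under 2-fold. rno-miR-10b-5p came second in kidney, with 170430 to 278992 CPM (median 221268). Adrenal gland had 265667 to 424906 CPM and skeletal muscle 156755 to 397249, so kidney overlapped both. Its difference from the mean was 3.89 ± 0.16 (adjusted p = 1.1e-33), while -0.19 ± 0.29 against muscle and -0.42 ± 0.29 against adrenal gland did not pass the test. The pair took 41.5% to 59.4% of all kidney counts (median 50.2%). The median share was 54.9% in adrenal gland, 32.3% in muscle, at most 12.2% in lung, spleen, liver, thymus and heart, and 0.318% in brain.

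The miR-196 products, known as repressors of Hox mRNAs, were scarcer. miR-196a-5p and miR-196b-5p were highest in kidney and muscle, and both miR-196c products were highest in adrenal gland. rno-miR-196b-5p was at 488 to 676 CPM in kidney (median 572), 273 to 389 in muscle and 61.6 to 119 in thymus. It was at most 54.6 CPM in any library of the other 6 organs, so kidney lay above all 64 libraries. The log2 difference was 6.24 ± 0.17 (adjusted p = 1.1e-45) from the mean and 0.97 ± 0.29 from muscle. rno-miR-196a-5p was at 153 to 217 CPM in kidney (median 180), below all muscle libraries (313 to 431) and above every other library, of which adrenal gland had the highest at 9.06. In 3 organs it was at or under the floor of 3 counts in every library. The fitted difference was 7.50 ± 0.21 (adjusted p = 5.1e-45), or 6.76 with those organs set to the floor, and 6.82 with library totals. Since the sequences of miR-196a-5p and miR-196b-5p differ at 1 base, and so do those of miR-10a-5p and miR-10b-5p where they align, reads may have been divided unevenly within each pair. miR-196c-5p was low in kidney (3.07 to 8.50 CPM) and lower than in adrenal gland by 2.28 on the log2 scale, although it passed the test against the mean, with 6 organs at the floor. miR-615, at 0.173 to 1.56 CPM, was the least abundant of the list.

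miR-192, miR-194 and miR-215, which are rich in liver, gut and renal tubules, were the next group: all 5 mature products were higher (4 under all 3 scalings, without miR-215), with a median log2 difference of 5.18, or 3.87 with organs at their floor. rno-miR-192-5p was at 56558 to 95211 CPM in kidney (median 68268). Liver held 237568 to 329193 CPM, and the other organs at most 2480 outside the lung library of male replicate 3. All kidney libraries were thus below all liver libraries and above all others. The difference was 5.73 ± 0.20 (adjusted p = 2.5e-38), and 5.99 without the 2 libraries that stood apart. Against lung alone it moved from 4.62 ± 0.43 to 6.06 ± 0.23 without them, and against liver it was -1.54 ± 0.38 (adjusted p = 3.5e-04). rno-miR-194-5p, from the same precursor cluster, followed with 858 to 2171 CPM in kidney (median 1621) and 3767 to 8483 in liver. Its difference from the mean was 4.85 ± 0.17 (adjusted p = 1.3e-38), or 5.04 without those libraries, and -1.69 ± 0.31 from liver. The 3p arms were minor: miR-192-3p had 12.5 to 23.8 CPM and miR-194-3p 9.22 to 16.5 CPM. Without the libraries that stood apart, the difference from the mean went from 5.58 to 5.72 for miR-192-3p and from 5.18 to 5.45 for miR-194-3p, and against lung from 4.46 to 5.17 and from 4.77 to 6.80. miR-215 was far less abundant than miR-192-5p, whose seed it shares, at 12.8 to 25.5 CPM. In liver it ranged from 16.3 to 15541 CPM (median 60.6), and its kidney difference of 1.37 ± 0.47 (adjusted p = 0.010) fell to 0.70 with library totals, where it was not called.

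**Figure D2:**
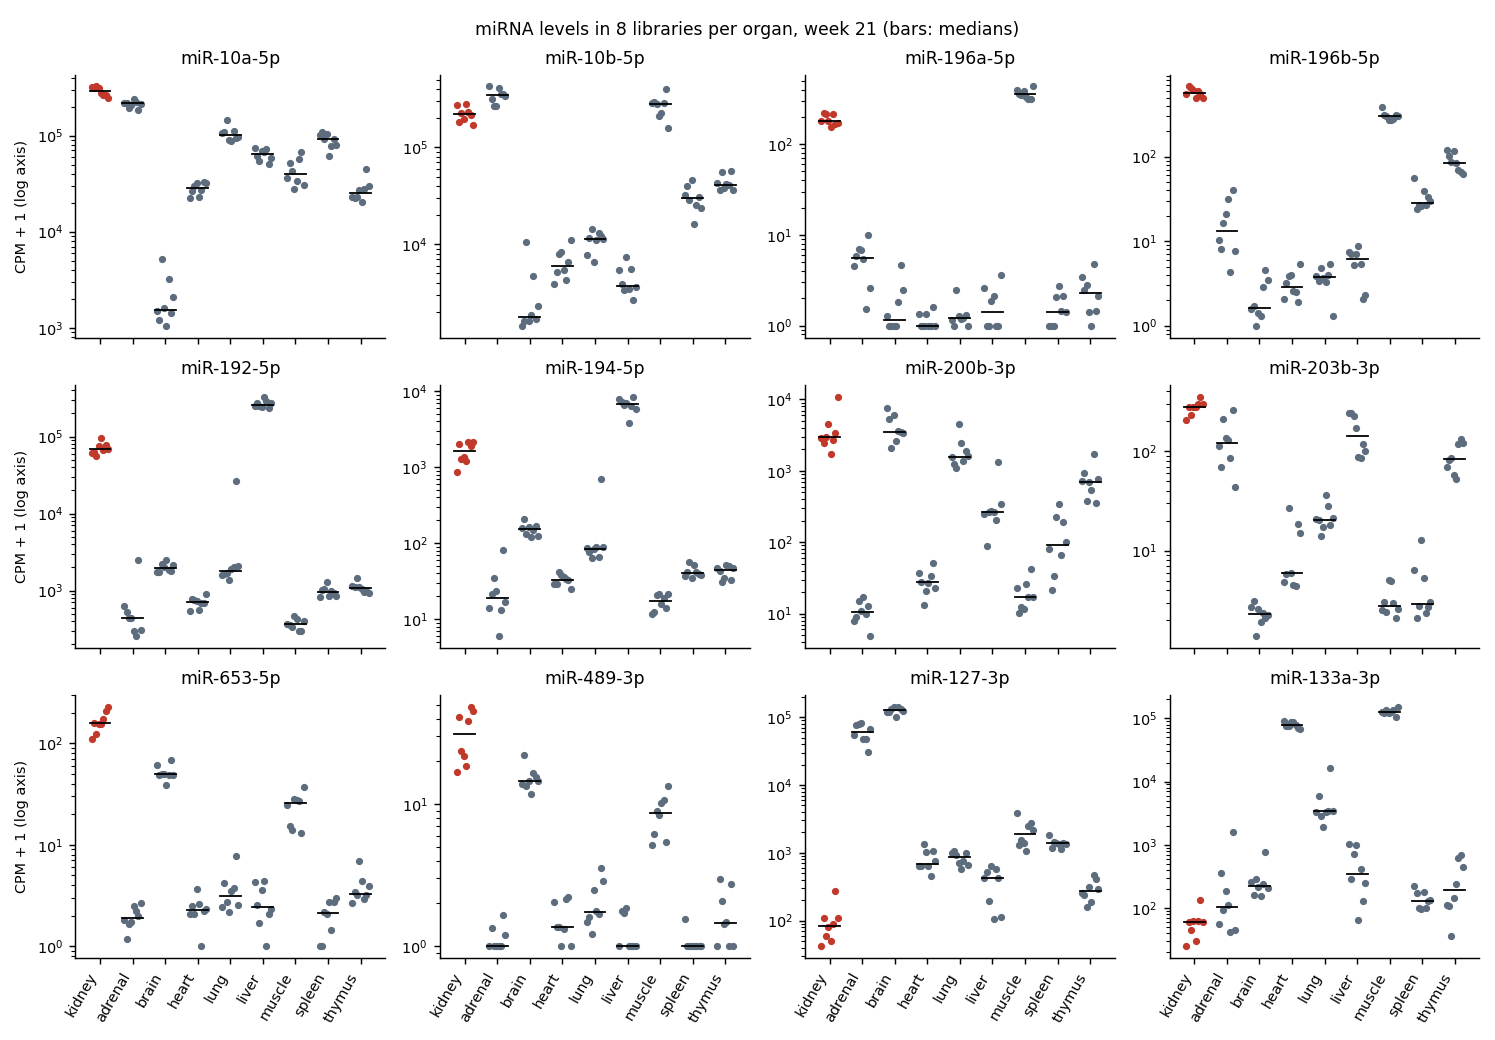
Level of selected miRNAs in each library of kidney and the 8 other organs at week 21 (CPM + 1, log axis), 8 points per organ with a bar at the median. For rno-miR-192-5p the kidney points (56558 to 95211 CPM) lie between liver and the rest, and for rno-miR-653-5p (109 to 229 CPM) they lie above every other organ.

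The miR-200 family, which keeps epithelial cells from losing their character by repressing Zeb1 and Zeb2, was also higher: 9 of 9 products were called, 6 of them under all 3 scalings, with a median log2 difference of 4.16 (3.65 with organs at their floor). rno-miR-200b-3p was the most abundant. It ranged from 1696 to 10945 CPM in kidney, with a median of 2963. The top value was that of male replicate 4, and the next was 4553 CPM. Brain had 2106 to 7631 CPM and lung 1100 to 4472, which overlap with kidney, and adrenal gland, heart and muscle stayed at or below 49.9 CPM. The difference from the mean was 4.98 ± 0.21 (adjusted p = 1.7e-33). Against brain the sign depended on the scaling, at 1.47 with TMM, 0.73 with DESeq2 and -0.12 with library totals. rno-miR-429 was at 1242 to 2892 CPM (median 1725), with brain at 2892 to 11089, and rno-miR-200a-3p was at 618 to 1719 CPM (median 1062), with brain at 991 to 13329. Their log2 differences were 4.16 ± 0.16 and 4.17 ± 0.19, and brain was the closest organ for both. The members from the other cluster, miR-200c and miR-141, were less kidney-rich. miR-141-3p had 401 to 1024 CPM in kidney but 7131 to 9749 in lung, and miR-200c-3p had 60.7 to 115 CPM against 441 to 688. Kidney was lower than lung in both, by 2.88 and 1.95 on the log2 scale.

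Related epithelial miRNAs moved likewise. All 4 products of miR-203 and miR-205, miRNAs of stratified and secretory epithelia, were higher in kidney, also under all 3 scalings. Over all miRNAs these shares were 16.9% and 9.9%. miR-203a-5p, at 0 to 1.02 CPM, came to -0.28 once the 6 organs at their floor were set to it. rno-miR-203b-3p, encoded on the strand opposite miR-203a, was at 207 to 353 CPM in kidney (median 277), 84.4 to 244 in liver and 42.5 to 261 in adrenal gland. Its difference from the mean was 4.77 ± 0.18 (adjusted p = 3.6e-37), and it was higher than liver by 1.21 with TMM but by 0.81, under 2-fold, with library totals. rno-miR-203a-3p was at 337 to 615 CPM, below most liver libraries (451 to 1281), with a difference of 2.28 ± 0.11. miR-205 was at 44.0 to 80.7 CPM against 1315 to 2211 in thymus. The sensory-organ cluster miR-183, miR-96 and miR-182 was higher in 4 of 4 products under all 3 scalings, against the organ mean on the log2 scale. In mean CPM, kidney was below the mean of the organ means for miR-183-5p (1101 against 1874), miR-183-3p (5.04 against 8.15) and miR-96-5p (64.0 against 178). For rno-miR-182, the main product of the cluster, it was slightly above (6903 against 6561). rno-miR-182 had 4663 to 9223 CPM in kidney (median 6872) and 18696 to 59936 in brain. It differed from the log2 mean by 2.82 ± 0.18 (adjusted p = 5.4e-23).

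miR-30 miRNAs were abundant without being particular to kidney. Of 11 products, 4 were called higher (miR-30a-5p, miR-30a-3p, miR-30c-5p and miR-30c-2-3p), none was lower, and none of the 4 was called under all 3 scalings. Over all miRNAs 16.9% were higher and 14.6% lower. The median difference was 0.70 with TMM and 0.06 with library totals. rno-miR-30a-5p had 57817 to 77176 CPM in kidney (median 67158), 109835 to 155030 in lung and 36104 to 84667 in muscle. Its difference of 1.41 ± 0.10 (adjusted p = 5.4e-22) became 0.74 with library totals. The other products of the family ranged from a log2 difference of -0.05 (miR-30b-3p) to 1.67 (miR-30c-2-3p). miR-204-5p, a tubule miRNA that was listed as a kidney candidate, was at 169 to 407 CPM, and its difference of -0.17 ± 0.15 (adjusted p = 0.39) did not pass the test. Its paralog miR-211-5p, at 0.173 to 2.07 CPM, was lower by 2.99 ± 0.33.

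**Figure D3:**
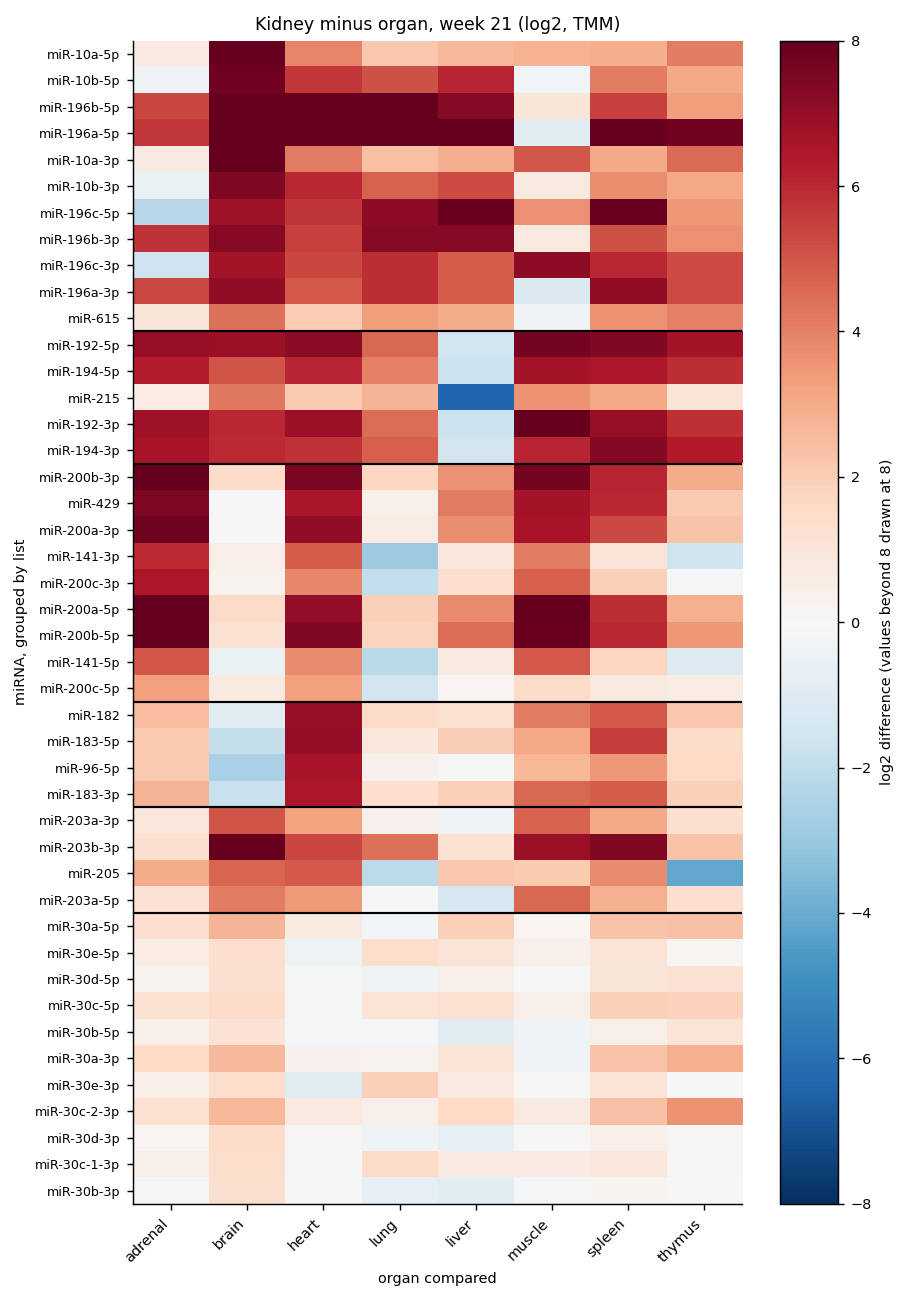
Log2 difference between kidney and each of the 8 organs (TMM, 8 libraries per organ) for members of the Hox-cluster, miR-192, miR-200, miR-30 and other lists, with red for higher and blue for lower in kidney and values beyond 8 drawn at 8. The miR-192 and miR-194 lines are blue in the liver column (-1.54 for miR-192-5p), and those of miR-10b-5p are near 0 for adrenal gland and muscle.

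To find miRNAs that set kidney apart from each organ and not only from the mean, the 8 pairwise contrasts of the same fit were read together. In 9 miRNAs (1.46% of those tested) kidney was at least 2-fold higher than all 8 organs, and in 2 (0.325%) it was lower than all 8. The 9 were miR-200b-3p, miR-200a-5p, miR-200b-5p, miR-203b-3p, miR-218a-1-3p and both arms of miR-653 and of miR-489. Only miR-653-5p and miR-489-3p remained under all 3 scalings, and both were called in each of 20 alternative fits at 2-fold. At 4-fold miR-489-3p was not among them, since it exceeded muscle by 1.95 on the log2 scale. rno-miR-653-5p was at 109 to 229 CPM in kidney (median 158). The next organs were brain with 37.6 to 67.6 CPM and muscle with up to 36.4 CPM, and no other organ exceeded 6.67 CPM in any library, so the groups did not overlap. The difference was 6.20 ± 0.14 from the mean (adjusted p = 2.4e-49), or 6.10 with 1 organ at its floor. It was 3.33 ± 0.26 from brain (adjusted p = 9.9e-20) and 2.87 ± 0.26 from muscle (adjusted p = 4.1e-16), and with library totals it was 1.69 from brain and 2.85 from muscle. rno-miR-489-3p had 15.7 to 47.4 CPM in kidney (median 30.0), 10.7 to 21.1 in brain and 4.11 to 12.3 in muscle. Its lower kidney libraries thus overlapped brain in CPM. The difference from the mean was 5.69 ± 0.20 (adjusted p = 9.6e-39), or 4.60 with 3 organs at their floor, and from brain it was 2.71 with TMM, 1.97 with DESeq2 and 1.09 with library totals. The other arms of both hairpins were near the limit of detection, miR-653-3p at 2.08 to 6.14 CPM and miR-489-5p at 0.683 to 6.77 CPM. Both hairpins lie in Calcr, whose mRNA was not measured here.

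Of the 90 miRNAs lower in kidney, brain was the highest organ for 49, spleen for 14, and heart and muscle for 6 each. Brain also led among the 61 miRNAs higher in kidney under all 3 scalings, as the highest other organ for 25. Its lead is thus not particular to the lower miRNAs, and the share over all miRNAs is not given here. Of the striated muscle list, 7 of 13 products were lower and 2, both arms of miR-499, were higher, miR-499-5p under all 3 scalings. Over all miRNAs 14.6% were lower and 16.9% higher. Kidney did not exceed striated muscle in miR-499-5p: the log2 difference was -2.93 from heart and -0.73 from skeletal muscle. Its kidney mean of 160 CPM was also below the mean of the organ means, 274 CPM. rno-miR-133a-3p, which acts in muscle differentiation, was at 23.9 to 131 CPM in kidney (median 58.7), 105585 to 152749 in muscle and 69118 to 89730 in heart, and differed from the mean by -4.29 ± 0.51 (adjusted p = 2.1e-11). It was not lower than every organ: spleen had 93.4 to 220 CPM, and the difference from spleen was -0.11. rno-miR-1-3p reached at most 1.56 CPM in kidney and 2078 to 3438 CPM in muscle (-4.91 ± 0.66), and miR-208b-3p, encoded in a heart myosin gene, at most 2.08 CPM against 807 to 1799 in heart (-4.37 ± 0.72). Of the imprinted cluster on chromosome 6, which is known for its expression in brain and adrenal gland, rno-miR-127-3p had 41.1 to 277 CPM in kidney (median 82.9), 101245 to 142555 in brain and 30300 to 82491 in adrenal gland. It was lower by 4.06 ± 0.27 (adjusted p = 1.0e-22), and all organs but thymus were 2-fold higher or more. miR-136-5p of the same cluster had 0.346 to 3.13 CPM in kidney against 852 to 1084 in brain (-3.91 ± 0.29).

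Lower than in all 8 organs were rno-miR-337-5p and rno-miR-338-5p. Both passed under all 3 scalings, which is a weak check for lower calls. rno-miR-337-5p, of that imprinted cluster, was at 0 to 0.160 CPM in kidney, at the floor of 3 counts in every library, with 14.9 to 139 in adrenal gland and 74.3 to 105 in brain. With kidney and the 2 organs that were also at the floor set to it, the difference was -2.24. In thymus it was 0 to 1.92 CPM, so that the groups overlapped. rno-miR-338-5p, a product of the oligodendrocyte miRNA gene in Aatk, was at 0.933 to 2.39 CPM in kidney (median 1.41), 235 to 421 in brain and 1.80 to 10.9 in thymus. The difference was -2.38 ± 0.36 (adjusted p = 3.4e-08) from the mean and -1.14 ± 0.45 from thymus, where the ranges overlapped. Without kidney male replicate 3 the number of miRNAs lower than all 8 organs rose to 4, and without replicate 4 of every organ and sex it was 0.

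miRNAs of other cells that a ground kidney holds were counted as lists. Of the endothelial list (both arms of miR-126a; sum 6263 to 16655 CPM in kidney), the smooth muscle list (miR-143 and miR-145; 34691 to 45797 CPM) and the hypoxia list (both arms of miR-210; 49.9 to 93.8 CPM), none of the 2, 4 and 2 members was called, where 16.9% of all miRNAs were higher and 14.6% lower. Of the leukocyte list 3 of 8 were lower (sum 589 to 1581 CPM), of the red cell list 3 of 5 (1399 to 3382 CPM), and of the ciliated epithelium list 4 of 6 (50.1 to 134 CPM). Of the mesenchymal list 1 of 4 was higher with TMM only. Beside the same 14.6% and 16.9%, 5 of 20 in the nervous tissue list were lower and 1, miR-219a-2-3p, was higher at a mean of 5.08 CPM, with brain far above kidney. Pancreas acinar miRNAs, of which 2 of 6 were lower, summed to at most 0.559 CPM. The median sum was 293 CPM in spleen and 120 in liver, and 0.839 in adrenal gland and 0.158 in muscle. With spleen left out of the organ mean, miR-217-5p was no longer called. rno-miR-375-3p of the endocrine list, which also marks secretory epithelia, had 382 to 1237 CPM in kidney and 3431 to 5272 CPM in adrenal gland. It was called higher than the organ mean on the log2 scale (2.07 ± 0.31, adjusted p = 2.9e-08). In CPM, its kidney mean of 764 was below the mean of the organ means, 1532. Of the liver cell list both arms of miR-802 were higher with TMM but not with library totals, and miR-122-5p was lower by 2.98 ± 0.89, or 1.94 without the 2 libraries that stood apart. Against lung alone it went from -5.90 to 0.73, which was not called, without them.

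The closest organ of each miRNA was the one with the smallest pairwise log2 difference, taken as a description with no test. Heart was closest for 110 miRNAs and lung for 107, then muscle (83), adrenal gland (79), thymus (66), liver (63), spleen (62) and brain (46). Among the 110 miRNAs with at least 100 CPM in kidney, heart was again the most frequent, with 23. The number of miRNAs called in either direction was also lowest for heart and lung and highest for brain, with another order between them. It went from 218 of 616 against heart (35.4%) and 222 against lung (36.0%) through 256 against liver (41.6%), 279 against muscle (45.3%), 283 against spleen (45.9%), 288 against adrenal gland (46.8%) and 316 against thymus (51.3%) to 434 against brain (70.5%). With TMM, higher and lower calls were closest to balanced against heart and spleen. With library totals, lower calls outnumbered higher ones against every organ but muscle. Against brain, kidney was higher in 192 (31.2%) and lower in 242 (39.3%) with TMM, and in 70 and 374 with library totals. Against spleen 142 (23.1%) and 141 (22.9%) became 71 and 282, against lung 102 (16.6%) and 120 (19.5%) became 62 and 199, and against heart 111 (18%) and 107 (17.4%) became 73 and 156. Against thymus 180 (29.2%) and 136 (22.1%) became 120 and 188, and against liver 154 (25%) and 102 (16.6%) became 119 and 133. The splits moved less against adrenal gland, from 107 (17.4%) and 181 (29.4%) to 94 and 198, and against muscle, from 155 (25.2%) and 124 (20.1%) to 152 and 127. By the Pearson coefficient of the mean profiles across miRNAs, lung was nearest (0.932) and brain farthest (0.713). The organ named for a single miRNA was not stable: 249 of 616 kept it with library totals, 356 with DESeq2 and 238 with the difference of mean log2(CPM + 1). The most abundant kidney miRNA nearest to each organ was miR-10a-5p for adrenal gland, miR-182 for brain (-0.81), miR-26a-5p for heart (-0.12), miR-148a-3p for lung (-0.21), miR-192-5p for liver, miR-10b-5p for muscle, miR-126a-5p for spleen (0.03) and miR-30e-5p for thymus (0.18). Of these, miR-182, miR-192-5p and miR-10a-5p differed from their nearest organ with an adjusted p below 0.05.

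**Figure D4:**
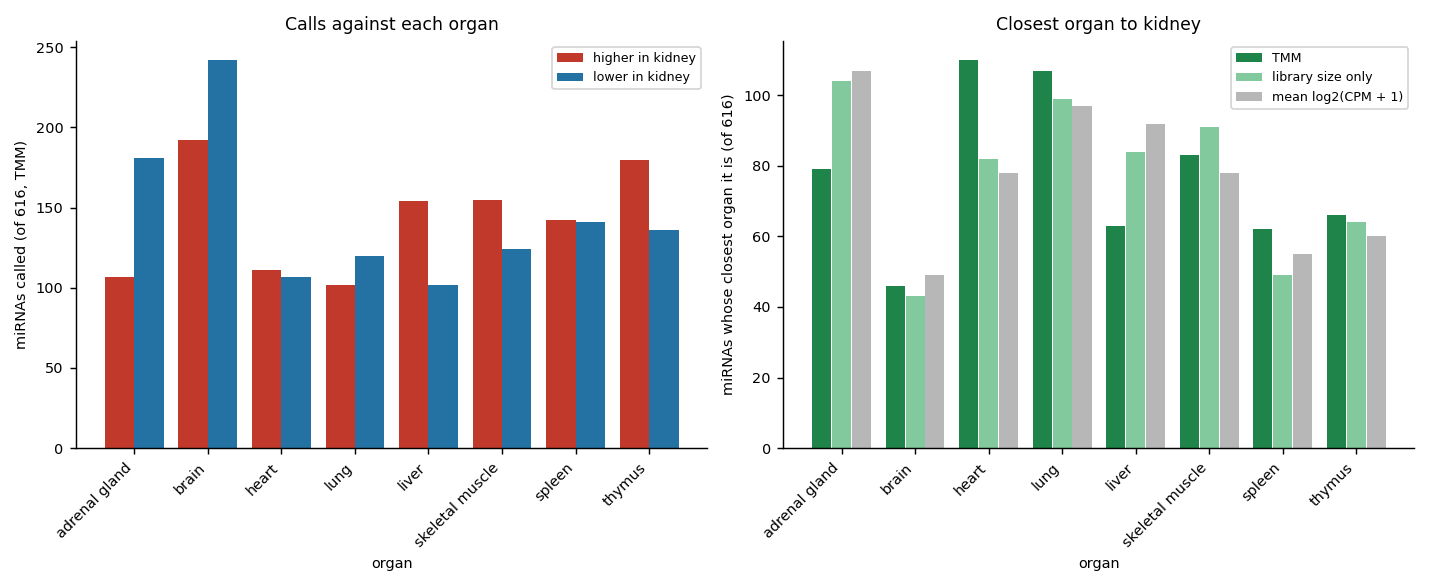
Left, miRNAs of 616 called higher or lower in kidney than in each organ at week 21 (TMM); right, the number of miRNAs whose closest organ to kidney it is. Brain shows the tallest bars on the left (192 higher, 31.2%, and 242 lower, 39.3%, or 70 and 374 with library totals) and the shortest on the right (46).

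Kidney differed between the sexes in few miRNAs. With 4 rats per sex, 7 of 616 miRNAs were called (1.14%), 4 higher in males (0.649%) and 3 lower (0.487%), and 53 had an unadjusted p below 0.05. The male and female values did not overlap in any of the 7, which the test had picked on these same values. The share of all 616 miRNAs without overlap is not given here. rno-miR-135a-5p was at 3.27, 6.38, 5.80 and 5.30 CPM in the females and at 11.8, 15.1, 14.1 and 21.8 CPM in the males, higher by 1.47 ± 0.29 on the log2 scale (adjusted p = 6.5e-04). miR-455-5p was at 12.1 to 26.3 CPM in females and 30.5 to 57.2 in males (1.18 ± 0.26, adjusted p = 0.0028). miR-135b-5p, with the seed of miR-135a-5p and 1 difference from it over 23 bases, was at 0 to 0.559 CPM in females and 1.21 to 4.04 in males, and miR-135a-3p was lower still. Lower in males was rno-miR-1247-5p, at 35.2 to 52.7 CPM in females and 9.53 to 14.3 in males (-1.85 ± 0.31, adjusted p = 1.1e-04). miR-3473 was at 6.95 to 15.9 CPM in females and 2.94 to 3.73 in males (-1.85 ± 0.35, adjusted p = 5.4e-04). The muscle miRNA miR-499-5p was at 146 to 308 CPM in females and 61.0 to 120 in males (-1.24 ± 0.25, adjusted p = 6.5e-04). With sequencing lane as a term none of the 4 was called higher in males (adjusted p = 0.10 for miR-135a-5p and 0.28 for miR-455-5p), while miR-1247-5p kept an adjusted p of 3.8e-04. Leaving out any one of replicate numbers 1 to 4 left 1 to 2 higher and 2 to 3 lower in males. Only 1 lane held kidney libraries of both sexes, so within kidney alone lane and sex can hardly be told apart. The lane term was fitted over all 72 libraries and takes the effect of a lane to be the same in every organ, which was not tested.
rno-miR-135a-5p: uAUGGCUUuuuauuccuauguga
rno-miR-135b-5p: uAUGGCUUuucauuccuauguga

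The difference between kidney and the other organs was itself compared between the sexes by an interaction term. It was called for 5 miRNAs (0.812%), and 56 had an unadjusted p below 0.05. The contrast (kidney minus the organ mean, log2) was larger in males than in females for miR-135a-5p, by 1.57 ± 0.37 (adjusted p = 0.013), and for miR-455-5p, by 1.09 (adjusted p = 0.025). With sequencing lane as a term both calls were lost (adjusted p = 0.24 and 0.32). The male minus female value was negative for miR-3473 (-2.02 ± 0.37, adjusted p = 6.2e-04), for miR-499-5p (-1.34 ± 0.26, adjusted p = 0.0010) and for miR-1247-5p (-1.48 ± 0.34, adjusted p = 0.0084). With library totals miR-499-5p and miR-1247-5p both had an adjusted p of 0.051.

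**Figure D5:**
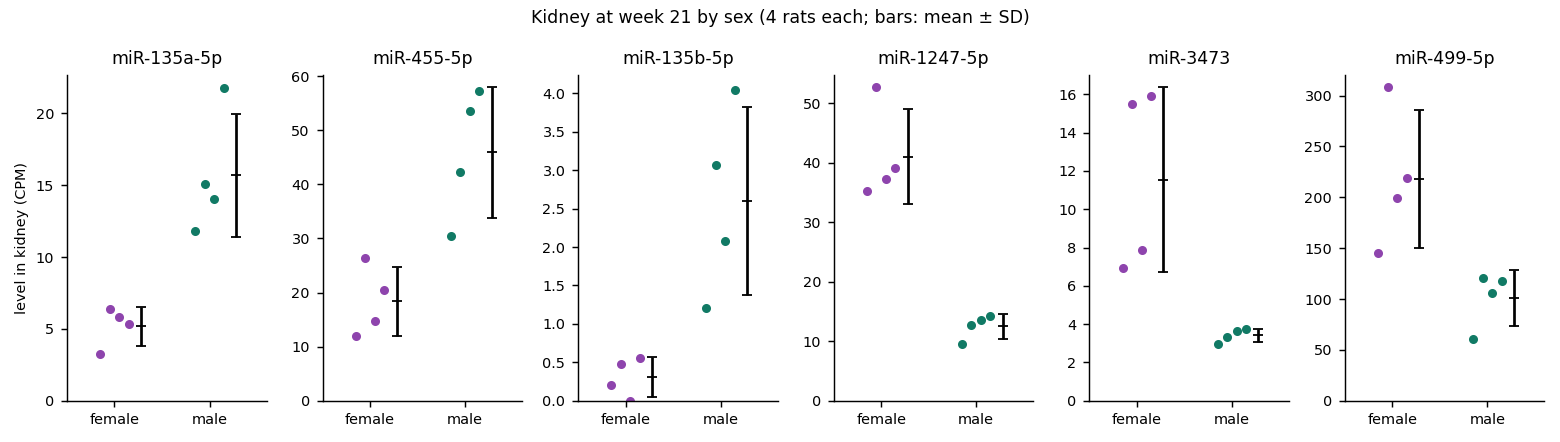
Levels in kidney at week 21 (CPM, axis from 0) of miRNAs called between the sexes, with a point for each of 4 female and 4 male rats and bars for the mean ± SD. Females lie above males for rno-miR-1247-5p (41.0 ± 7.91 against 12.5 ± 2.10 CPM) and below them for rno-miR-135a-5p (5.19 ± 1.35 against 15.7 ± 4.29 CPM), with no overlap.

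The contrast was repeated in other rats at 2, 6 and 104 weeks. Kidney was higher in 81 miRNAs (13.1%) and lower in 165 (26.8%) at week 2, in 91 (14.8%) and 123 (20.0%) at week 6, and in 85 (13.8%) and 110 (17.9%) at week 104. At week 2 the higher count was 123 without replicate 2 and 125 without replicate 3. For the youngest rats the study reports low RNA integrity in the spleen samples, and spleen is part of the organ mean. What this did to the counts of that age, and to those shared with it, was not tested. With library totals and DESeq2, 191 and 200 were lower at week 6 and 183 and 167 at week 104, and 51 were higher at week 104 with library totals. Of the 104 miRNAs higher at week 21, 68 were also higher at week 2, 81 at week 6 and 74 at week 104, and 56 were higher at all 4 ages. Of the 90 lower ones, 59 were lower at all 4 ages. In 1 case the direction was opposite: miR-1193-3p was higher at week 21 (1.79) and lower at week 2 (-2.35). The level of rno-miR-192-5p in kidney was 34356 ± 3512 CPM at week 2, 63153 ± 2289 at week 6, 70708 ± 12273 at week 21 and 53770 ± 10888 at week 104 (mean ± SD, n = 8), and its log2 difference from the organs was 4.64, 5.34, 5.73 and 5.48. rno-miR-196a-5p was at 446 ± 56.9 CPM at week 2, 277 ± 35.9 at week 6, 187 ± 24.9 at week 21 and 162 ± 25.6 at week 104. rno-miR-10a-5p stayed between means of 274880 and 322258 CPM, with differences of 3.47 to 4.00, and rno-miR-653-5p between 120 and 187 CPM, with differences of 5.79 to 6.20. The ages were not tested against each other.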

How the data were processed

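Small RNA was sequenced from whole ground organs. Per the labels and the study's methods, the authors trimmed reads with fastp 0.23.2, aligned them with Bowtie 1.3.1 to miRBase and other collections and to rn7, and deposited counts per miRNA without normalization, leaving out miRNAs with under 1 count per library on average. The 616 miRNAs hold a few candidates of the authors. Whether strand was used in counting is not given in the sources used here.

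Groups came from the organ, age and sex labels. The 8 kidney libraries and 64 libraries of 8 organs of week 21 were fitted together with edgeR 4.0.16 (TMM, quasi-likelihood test, R 4.3.3), with no covariate and no filter. The contrast was kidney minus the mean of the 8 organ coefficients on the log2 scale; Benjamini-Hochberg adjustment ran over all 616 miRNAs and calls needed an adjusted p below 0.05 and a difference of at least 2-fold. Organs of a rat were treated as independent. Errors given with ± are standard errors unless SD is named. Sex was tested in a fit with 18 groups of organ and sex; the brain and spleen libraries that the study removed were left out at weeks 6 and 104. CPM is each count over its library's total, times 1e+06. A group with at most 3 counts in every library was at its floor, and differences "with floor" put it there. Tables were made with Python 3.11.15, pandas 2.3.3 and NumPy 2.4.6, and figures with matplotlib 3.10.9. Each test was first tested on simulated data.

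The members and lists were chosen with earlier results of these data known. Named miRNAs are the 10 highest called with at least 100 CPM in kidney, the 6 lowest called with at least 100 CPM in the organs, the 6 most abundant, those beyond all 8 organs, members of the first 7 lists, the leading sex differences, the most abundant for each closest organ and up to 3 per other list; miR-219a-2-3p, miR-135a-3p and miR-1193-3p were named after their values were seen. Depth was 614557 to 6348068 counts a library, and counting error was far below the spread between libraries. Alternatives were library totals, DESeq2 1.42.0, a mean count of at least 10, 4-fold, the adjusted p alone, arithmetic organ means, a sequencing lane term (lanes from the study's sample table), a replicate block and leaving out replicates.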

Additional observations from a re-analysis of the deposited data

Results flagged for a closer look

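Of 73 sets of 8 libraries examined, 16 held a library whose gap to its neighbour was too large a part of the range (above 0.526 of it). That limit gives about 1 in 20 for independent, normally distributed values. CPM need not be normal and miRNAs of a library may vary together, so the count cannot be set against that rate. The sets outside kidney were those of miR-122-5p, miR-192-5p and miR-194-5p in lung and adrenal gland, and all of them were flagged. In kidney male replicate 4 this concerned miR-200b-3p at 10945 CPM (1696 to 4553 in the other kidney libraries), miR-30c-5p at 11917 (5219 to 7903), miR-96-5p at 154 (31.0 to 64.0), miR-126a-3p at 4761 (1632 to 2975), miR-145-3p at 668 (169 to 354) and miR-199a-5p at 588 (169 to 323). In kidney male replicate 3 it concerned miR-133a-3p at 131 CPM (23.9 to 61.6) and miR-127-3p at 277 (41.1 to 109). miR-486, a red cell miRNA, was at 3236 CPM in kidney male replicate 1 (1230 to 1870), and miR-34c-5p at 114 in kidney female replicate 3 (42.7 to 75.8). Without kidney male replicate 4 the difference of miR-200b-3p from the organ mean was 4.68 on the log2 scale, against 4.98 with it.

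Outside kidney, the lung library of male replicate 3 held miR-122-5p at 2885 CPM, miR-192-5p at 26475 and miR-194-5p at 707, and the adrenal library of the same number held 421, 2457 and 80.9 CPM. Their part in the kidney contrasts is given by the values without them beside each result.

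In 5 miRNAs the kidney contrast differed between males and females by the interaction test of edgeR (males minus females, log2): 1.57 for miR-135a-5p, 1.09 for miR-455-5p, -1.34 for miR-499-5p, -1.48 for miR-1247-5p and -2.02 for miR-3473. With sequencing lane as a term miR-135a-5p and miR-455-5p were not called (adjusted p = 0.24 and 0.32).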

How the results depend on the processing

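Of the summary values under all alternatives, 388 stayed within 1.5 times the reported count and 46 did not; no cause was tested. Against the organ mean, 104 higher and 90 lower became 61 and 186 with library totals, 162 lower with DESeq2, 47 and 53 at 4-fold, 178 and 137 on the adjusted p alone, and 56 and 308 with arithmetic means of CPM (no test). At 4-fold, 132 were called against heart, 125 against lung, 150 against liver, 173 against muscle, 173 against spleen and 187 against thymus. miRNAs beyond all 8 organs (9 higher, 2 lower) became 3 and 14 with library totals, 4 and 7 with DESeq2, 3 and 1 at 4-fold, 16 and 5 on the adjusted p alone, and 4 lower with a mean count of at least 10, a setting that also gave brain 27 and heart 65 as closest organ. Between the sexes, a lane term left 0 higher in males, for kidney and for the interaction, where library totals gave 1 lower and DESeq2 4 higher. At week 6, 191 (library totals) and 200 (DESeq2) were lower; at week 104, 51 were higher with library totals, and 183 and 167 were lower. Leaving out replicates gave 91 to 104 higher and 81 to 98 lower at week 21, 8 to 10 and 0 to 4 beyond all organs, 1 to 2 and 2 to 3 between the sexes, 0 to 2 and 2 to 3 for the interaction, and 82 to 125 higher at week 2 (123 without replicate 2 and 125 without replicate 3). Leaving out the lung and adrenal libraries of male replicate 3, chosen after seeing the data, gave 102 and 92. Of values for single named miRNAs 2718 kept their side of the threshold, 45 passed it newly, 53 lost it and 0 reversed. Of 29 uncalled named miRNAs, 10 changed sign with library totals. Arithmetic organ means were not among the settings for single miRNAs. In mean CPM, kidney was below the mean of the organ means for some miRNAs called higher, such as miR-205 (62.9 against 285) and miR-141-3p (693 against 1768). For others, such as miR-10a-5p (289627 against 71666), it was above.

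The labels do not say that a replicate number marks one rat across organs. Same-numbered libraries deviated together with a median correlation of 0.0401 (-0.449 to 0.332), above 0.1 in 20 of 64 pairs, and 19 of 64 correlated best with their own number. With sex and replicate number together as a block, 106 were higher and 89 lower, 9 and 3 were beyond all organs, and 2 and 3 had an interaction. Within kidney alone a block by the bare number gave 6 higher and 8 lower in males. That block joins a male and a female rat of the same number and so does not account for the animal.

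Depth limits miRNAs near the floor: kidney had at most 3 counts in every library for 171 of 616, and 430 had a mean count of at least 10.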

Other observations

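Testis and uterus, which only 1 sex has, were left out of the contrasts. With 4 adult libraries each, uterus held rno-miR-10b-5p at a mean of 227962 CPM and testis at 122145, and uterus held rno-miR-196b-5p at 1616 CPM, above the 488 to 676 CPM of kidney. Adding both as organs to be exceeded left 9 miRNAs higher and 2 lower than all others.

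The miRNA rno-miR-375-3p was at 910 to 1237 CPM in the 4 female kidneys and 382 to 539 in the 4 male ones, with no overlap, but its difference of -1.34 ± 0.70 on the log2 scale did not pass edgeR's test (adjusted p = 0.65).

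Among the miRNA candidates that the authors named by chromosome, rno_miR_chrX_48878 was higher in kidney under all 3 scalings (2.59 ± 0.41 on the log2 scale, mean level 1.93 CPM). The study lists it as enriched in testis, which was not among the organs compared. The lower one, rno_miR_chr7_38540, had 0 counts in kidney, and the study lists it for brain. Over all miRNAs 9.9% were higher and 14.6% lower under all 3 scalings.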
